A study of Mus musculus with 10 samples.

Results

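The genes described here are 35 mouse genes of glycolysis and of the response to low oxygen, measured in bone marrow colonies transformed by BCR-ABL that carried Cdk6-K43M or lacked Cdk6. They were chosen by name, and every non-control probe whose transcript accession belongs to one of them was taken, which gave 60 of the 56605 probes on the array. After a filter on dim probes 34 of the 35 were among the 22008 genes tested. Adm, which encodes the vasodilator peptide adrenomedullin, was left out because its probe was well above background in 0 of the 8 single mutant samples and in the wild-type channel of 3 of 10 arrays.

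Glycolysis turns glucose into pyruvate in the cytosol and yields ATP without oxygen, and lactate dehydrogenase and a lactate exporter let it run on when pyruvate does not enter the mitochondria. The transcription factor HIF-1 joins an oxygen-sensitive alpha subunit, encoded by Hif1a, to a stable beta subunit, and prolyl hydroxylases of the Egln family mark the alpha subunit for destruction when oxygen is present. HIF-1 is known to drive most of the genes named here by binding a short core sequence in their promoters and enhancers, and fast-growing blood cell tumours commonly rely on glycolysis.

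The tested colonies were of genotype Cdk6-K43M, a CDK6 protein with a changed residue in its ATP-binding site that removes kinase activity, or Cdk6-/-, without functional CDK6, and the comparison colonies were Cdk6+/+. CDK6 pairs with D-type cyclins to start the cell cycle and is also known to bind chromatin as a regulator of transcription. All came from bone marrow of 6-week-old donor mice that was exposed to retroviral supernatant for 24 h, were grown for 10 days in methylcellulose that held no growth factor, are labelled BCR-ABL+, and received no further treatment. There were 4 Cdk6-K43M and 4 Cdk6-/- samples, each hybridised singly in Cy5 on a 2-colour Agilent array together with 1 pool of 4 wild-type samples in Cy3, and 1 further array per genotype held the pool of its 4 RNAs with the dyes exchanged. RNA came from picked colonies, and how many colonies, cultures or animals went into a sample is not stated, so that p-values measure only the spread between these samples. The wild-type pool is 1 control sample without a spread of its own, and both mutant genotypes were measured against it. In such bulk RNA, fewer cells of a type and less RNA per cell cannot be told apart.

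The share of probes well above background was 46.9 to 49.9% in the mutant channel and 45.8 to 50% in the wild-type channel, and no spot was saturated. Every member tested exceeded background in 3 or 4 single samples of each genotype and in all 10 wild-type channels, so that no change of a member below is a bound. The probe for Cdk6 read 0.35 (log2) above the pool in Cdk6-K43M and 0.41 below it in Cdk6-/-, and whether it reads the deleted or the remaining part of the gene is not stated. All 16 B-lineage progenitor markers were well above background in all samples of both genotypes and in all wild-type channels. Of those 16, 5 were called higher and 4 lower than the pool in Cdk6-K43M, at an adjusted p under 0.05 in limma's fit, and 1 higher and 0 lower in Cdk6-/-. By the same fit 9.79% of all genes were called higher and 10.3% lower in Cdk6-K43M, and 3.39% higher and 3.85% lower in Cdk6-/-. Of 20 granulocyte, monocyte and macrophage markers, 11 were well above background in all Cdk6-K43M samples, 10 in all Cdk6-/- samples and 15 in all wild-type channels, while 6 never were in Cdk6-K43M samples, 7 never in Cdk6-/- samples and 3 never in the wild-type channels, Ltf and Prtn3 being among them each time. Of the 16 measured, 1 was called higher and 5 lower in Cdk6-K43M (median log2 change -0.126), and 0 higher and 6 lower in Cdk6-/- (median -0.535). The 16 ranged from -3.94 to 1.59 in Cdk6-K43M, where 7 were positive, and from -4.16 to 0.94 in Cdk6-/-, where 3 were. Lowest in both was S100a9, a calcium-binding protein abundant in neutrophils, whose signal over background is not given here. The summed signal of the 16 was 0.707 to 2.05 times the wild-type signal in Cdk6-K43M samples, highest in replicate 4, and 0.694 to 1.02 times in Cdk6-/- samples. Of 7 measured T and NK cell markers, 2 were called higher and 1 lower in Cdk6-K43M, and 2 higher and 2 lower in Cdk6-/-. Their median was 0.0108 in Cdk6-K43M, over a range of -1.32 to 2.79, and -0.0163 in Cdk6-/-, over a range of -1.19 to 2.14. Thy1 had the highest value in both genotypes. In the direct comparison 1 of the 7 was called higher in Cdk6-K43M than in Cdk6-/-, where 0.264% of all genes were. Of 4 measured erythroid and megakaryocyte markers, 0 were called in Cdk6-K43M and 1, higher, in Cdk6-/-. The part of such cells in the values of the glycolysis and hypoxia genes was not tested.

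The promoters of 6 members are shown, picked by fitted change in Cdk6-K43M: the 5 largest of the 12 called increases and the only called decrease. Size does not rank how firm a call is. Under 18 alternative settings of the processing the Egln3 call was lost 9 times, that of Slc16a3 5 times and that of Hif1a 2 times. Ero1a and Car9 passed in all 18 and are not shown. Each line holds 250 bases before and 50 bases after the first listed start of the gene, 5′ to 3′ on the gene's own strand, from RefSeq annotation of GRCm38.p6. Capitals mark ACGTG or GCGTG on either strand, the core of the hypoxia response element, and a palindrome such as CACGTG counts on both strands. The windows are chr8:45999801-46000100 on the minus strand for Ankrd37, chr11:78322823-78323122 on the plus strand for Aldoc, chr11:120948817-120949116 on the plus strand for Slc16a3, chr12:54203825-54204124 on the minus strand for Egln3, chr4:119108495-119108794 on the plus strand for Slc2a1, and chr12:73907617-73907916 on the plus strand for Hif1a.
Ankrd37: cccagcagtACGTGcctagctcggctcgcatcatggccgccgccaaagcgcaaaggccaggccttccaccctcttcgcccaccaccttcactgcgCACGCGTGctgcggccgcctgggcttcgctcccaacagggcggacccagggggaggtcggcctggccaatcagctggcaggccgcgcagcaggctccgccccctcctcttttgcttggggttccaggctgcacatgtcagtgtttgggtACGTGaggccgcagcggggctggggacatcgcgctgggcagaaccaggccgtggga
Aldoc: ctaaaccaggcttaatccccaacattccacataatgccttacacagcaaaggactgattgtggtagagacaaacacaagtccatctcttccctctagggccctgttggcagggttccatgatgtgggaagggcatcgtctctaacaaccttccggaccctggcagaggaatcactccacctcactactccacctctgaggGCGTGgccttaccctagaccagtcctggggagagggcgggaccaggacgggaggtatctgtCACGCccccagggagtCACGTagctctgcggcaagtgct
Slc16a3: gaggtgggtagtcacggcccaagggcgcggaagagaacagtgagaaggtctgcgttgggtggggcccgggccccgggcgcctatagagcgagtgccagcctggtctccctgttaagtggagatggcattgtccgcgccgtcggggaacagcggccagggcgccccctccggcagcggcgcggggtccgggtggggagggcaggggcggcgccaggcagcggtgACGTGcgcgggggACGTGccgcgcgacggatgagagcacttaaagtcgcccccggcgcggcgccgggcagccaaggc
Egln3: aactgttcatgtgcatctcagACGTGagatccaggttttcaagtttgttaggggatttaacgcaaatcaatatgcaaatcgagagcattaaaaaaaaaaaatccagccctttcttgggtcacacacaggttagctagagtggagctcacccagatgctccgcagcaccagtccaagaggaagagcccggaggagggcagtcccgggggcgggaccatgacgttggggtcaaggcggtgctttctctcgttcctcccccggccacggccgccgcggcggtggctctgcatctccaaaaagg
Slc2a1: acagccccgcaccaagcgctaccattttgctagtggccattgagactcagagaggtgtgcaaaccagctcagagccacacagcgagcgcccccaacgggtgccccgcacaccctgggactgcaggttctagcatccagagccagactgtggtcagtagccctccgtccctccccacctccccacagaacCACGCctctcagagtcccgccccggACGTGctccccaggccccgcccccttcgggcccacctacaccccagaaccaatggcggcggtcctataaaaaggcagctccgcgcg
Hif1a: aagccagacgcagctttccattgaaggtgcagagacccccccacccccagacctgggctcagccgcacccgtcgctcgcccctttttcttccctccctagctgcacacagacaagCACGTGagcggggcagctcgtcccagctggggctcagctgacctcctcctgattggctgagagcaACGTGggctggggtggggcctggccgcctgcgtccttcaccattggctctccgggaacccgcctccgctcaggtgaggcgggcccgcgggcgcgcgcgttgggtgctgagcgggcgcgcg
The Ankrd37 window holds 4 such cores, of which 2 are the overlapping strands of 1 palindrome, beginning at -155 and -152, and 1 begins at position -6 from the start. The Slc16a3 window holds 2 copies of ACGTG close together, beginning at -27 and -14. Slc2a1 has 2 cores, at -61 and -36. Aldoc has 3, of which 2 lie after the start, and the window of its second annotated start, not shown, holds 1. Egln3 has 1, which begins at -229, and Hif1a, the gene that fell, has 3, of which 2 are the strands of 1 palindrome. Promoter windows were found for 32 of the 35 genes (not for Slc2a3, Bnip3l and Ndrg1), and 38 of their 47 windows (80.9%) hold either core, against 43.8% of 32851 windows of all genes. ACGTG is in 55.3% of the members' windows and in 19.6% of all windows, and GCGTG in 57.4% and 32.4%. A match is a description of the letters and shows no binding, and the base composition of the windows was not matched. The genes were chosen by name as glycolysis and hypoxia genes, so these shares describe the list and say nothing about the arrays. Some windows of the same gene overlap, as in Eno1, and are not independent.

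In Cdk6-K43M colonies 12 of the 34 genes rose against the wild-type pool, 1 fell and 21 did not pass the test, at an adjusted p under 0.05 in limma's moderated fit with Benjamini-Hochberg adjustment over all 22008 genes. Among all genes tested, 9.79% rose and 10.3% fell in the same comparison. The fitted log2 changes of the 34 ranged from -0.44 to 2.58 with a median of 0.296, where the median over all genes was -0.0103. By role, the increases took in all 3 transporters, 3 of 14 glycolytic enzymes, 1 of 2 genes of pyruvate fate, 1 of 3 genes of HIF and its hydroxylases, and 4 of 10 measured hypoxia targets outside glycolysis. At an unadjusted p under 0.05 there were 19 (55.9%, against 33.4% of all genes), and 29 of the 34 changes were positive (85.3%, against 47.3%). The number past the threshold was 23 with arrays centred on their median in place of loess, none of them lower, where 28.9% of all genes passed. It was 5 with the pool's own spread, estimated from the mutant samples, added to the standard errors, where 5.77% of all genes passed, against 20.1% without that addition.

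**Figure D1:**
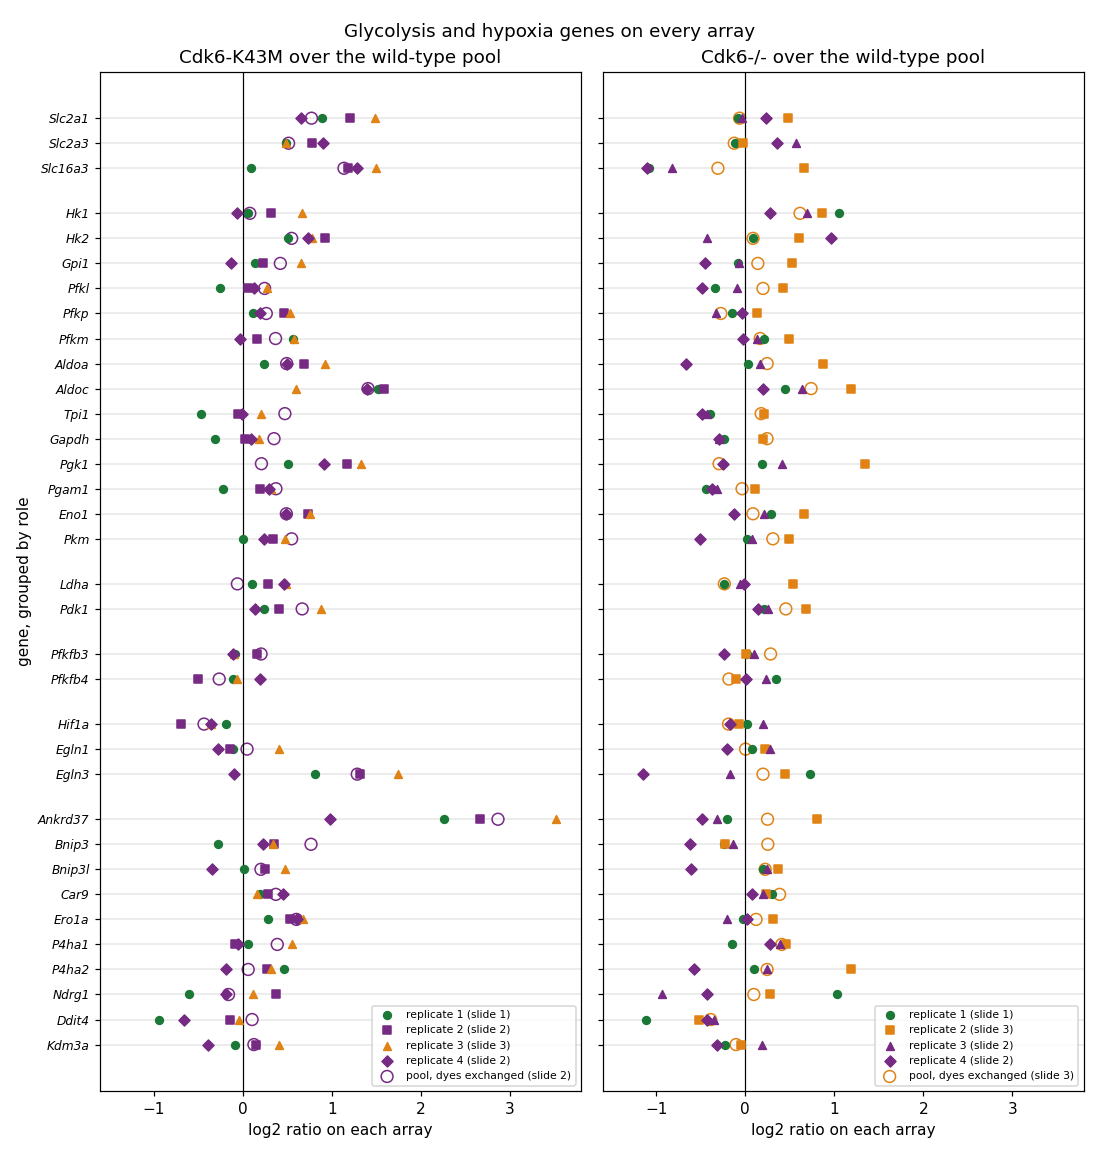
Log2 ratio to the wild-type pool of each of the 34 genes tested on each array, with Cdk6-K43M on the left and Cdk6-/- on the right; filled symbols are single samples, open circles the pools with exchanged dyes, and colours the 3 slides. Ankrd37 lies between 0.98 and 3.52 on every Cdk6-K43M array and between -0.48 and 0.81 on every Cdk6-/- array.

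The 3 transporters carry glucose into the cell (Slc2a1 and Slc2a3, the transporters GLUT1 and GLUT3) and lactate out of it (Slc16a3, the exporter MCT4). Slc2a1 had log2 ratios of 0.89, 1.21, 1.48 and 0.66 in Cdk6-K43M replicates 1 to 4 and 0.77 in their pool, and -0.078, 0.48, -0.031 and 0.23 in Cdk6-/- replicates and -0.063 in theirs. All Cdk6-K43M samples lay above all Cdk6-/- samples, as in 4.04% of all genes. Its fitted change in Cdk6-K43M was 0.93 (SE 0.13, 1.9-fold, adjusted p = 0.00131). Slc2a3 had ratios of 0.49, 0.78, 0.49 and 0.90 in Cdk6-K43M replicates and 0.52 in the pool, and -0.12, -0.024, 0.57 and 0.35 in Cdk6-/- replicates and -0.12 in the pool. Every Cdk6-K43M array was positive, and Cdk6-/- replicate 3 lay inside their range. The increase in Cdk6-K43M was 0.56 (SE 0.115, adjusted p = 0.00774). Slc16a3 had ratios of 0.098, 1.18, 1.5 and 1.28 in Cdk6-K43M replicates and 1.14 in the pool, and -1.08, 0.66, -0.82 and -1.10 in Cdk6-/- replicates and -0.31 in the pool. Cdk6-K43M replicate 1 stood below the other 3, and Cdk6-/- replicate 2 stood above the other Cdk6-/- samples and within the Cdk6-K43M range. Slc16a3 rose by 1.1 in Cdk6-K43M (SE 0.294, 2.14-fold, adjusted p = 0.0264), a call that was lost without Cdk6-K43M replicate 2, 3 or 4 (adjusted p = 0.0555, 0.0594 and 0.0502).

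All 14 enzymes of the glycolytic chain had positive fitted changes in Cdk6-K43M, from 0.168 to 1.34 with a median of 0.323, and 3 of them rose: Aldoc, Hk2 and Eno1. The fit takes its dye term from the pools, and on the single arrays 10, 13, 14 and 10 of the 14 were positive in replicates 1 to 4. Tpi1 and Gapdh averaged -0.084 and -0.0022 over the single Cdk6-K43M samples but read 0.47 and 0.35 in the pool, so their positive fitted signs rest on the pools. Aldoc encodes aldolase C, an isozyme that splits fructose 1,6-bisphosphate. Its ratios were 1.52, 1.58, 0.60 and 1.40 in Cdk6-K43M replicates and 1.41 in the pool, and 0.45, 1.19, 0.64 and 0.20 in Cdk6-/- replicates and 0.74 in the pool. Replicate 3 was the low Cdk6-K43M sample and lay below 2 of the Cdk6-/- samples, while all 10 arrays were above 0. Aldoc rose by 1.34 in Cdk6-K43M (SE 0.176, 2.53-fold, adjusted p = 0.000951). Hk2 encodes the inducible hexokinase that traps glucose as its 6-phosphate, and Hk2 had ratios of 0.51, 0.92, 0.78 and 0.73 in Cdk6-K43M replicates and 0.55 in the pool, and 0.087, 0.60, -0.42 and 0.96 in Cdk6-/- replicates and 0.088 in the pool. The Cdk6-K43M samples were close together, and the Cdk6-/- samples ranged to both sides of them. Hk2 rose by 0.64 in Cdk6-K43M (SE 0.179, adjusted p = 0.0321), and the adjusted p was 0.068, 0.0615 and 0.0511 without replicate 2, 3 or 4 and 0.051 with slide as a block. Eno1 encodes the enolase that makes phosphoenolpyruvate, and its ratios were 0.49, 0.74, 0.76 and 0.49 in Cdk6-K43M replicates and 0.49 in the pool, and 0.29, 0.67, 0.21 and -0.13 in Cdk6-/- replicates and 0.087 in the pool. Only Cdk6-/- replicate 2 reached the Cdk6-K43M range, and Eno1 rose by 0.55 in Cdk6-K43M (SE 0.107, adjusted p = 0.00647).

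The other 11 enzymes did not pass in Cdk6-K43M. Closest to the threshold was Pfkp, the platelet-type phosphofructokinase of the committed step, with 0.28 (SE 0.0873, adjusted p = 0.0506). Pkm, the pyruvate kinase of most tissues, had 0.41 (adjusted p = 0.0535), and Pfkm, the muscle-type phosphofructokinase, had 0.33 (adjusted p = 0.0608). Aldoa, the main aldolase, had 0.57 (adjusted p = 0.067). Pgk1, the kinase that makes the first ATP of the pathway, had ratios of 0.50, 1.17, 1.33 and 0.91 in the Cdk6-K43M replicates but 0.21 in their pool, and its fitted change of 0.60 had an adjusted p of 0.0777. The remaining 6, Hk1, Gpi1, Pfkl, Tpi1, Gapdh and Pgam1, had fitted changes of 0.17 to 0.32. Gapdh, often used as a control gene, was at 0.18 (adjusted p = 0.23), and its 6 probes gave fitted values from -0.14 to 0.18, so their signs differ.

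Ldha and Pdk1 act where pyruvate either becomes lactate or enters the mitochondria. Pdk1, the kinase that switches pyruvate dehydrogenase off, had ratios of 0.24, 0.41, 0.88 and 0.14 in Cdk6-K43M replicates and 0.67 in the pool, and 0.21, 0.69, 0.26 and 0.14 in Cdk6-/- replicates and 0.46 in the pool. All arrays of both genotypes were positive, and the groups overlapped almost fully. Pdk1 rose by 0.52 in Cdk6-K43M (SE 0.121, adjusted p = 0.0139), whereas its value of 0.41 in Cdk6-/- had an adjusted p of 0.0726. Ldha, the muscle-type subunit of lactate dehydrogenase, was at 0.15 in Cdk6-K43M (adjusted p = 0.382) and -0.11 in Cdk6-/- (adjusted p = 0.602). The bifunctional enzymes Pfkfb3 and Pfkfb4, which set the level of the phosphofructokinase activator fructose 2,6-bisphosphate, passed in no comparison. Pfkfb4 had the smaller p of the pair, with ratios of -0.11, -0.50, -0.063 and 0.19 in Cdk6-K43M replicates and -0.26 in the pool, and 0.34, -0.11, 0.23 and 0.013 in Cdk6-/- replicates and -0.18 in the pool. Its fitted value in Cdk6-K43M was -0.22 (SE 0.106, unadjusted p = 0.068, adjusted p = 0.185), and that of Pfkfb3 was 0.098 (adjusted p = 0.346).

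Hif1a was the only one of the 34 that fell in Cdk6-K43M. Its ratios were -0.19, -0.69, -0.36 and -0.35 in Cdk6-K43M replicates and -0.43 in the pool, and 0.016, -0.075, 0.20 and -0.17 in Cdk6-/- replicates and -0.19 in the pool. All 4 Cdk6-K43M samples lay below all 4 Cdk6-/- samples, as in 4.1% of all genes, but only narrowly. Cdk6-K43M replicate 1 was at -0.186, Cdk6-/- replicate 4 at -0.169 and the Cdk6-/- pool at -0.188. Hif1a fell by 0.44 in Cdk6-K43M (SE 0.0838, 0.739-fold, adjusted p = 0.0059), and with arrays centred on their median in place of loess the value was -0.236 (adjusted p = 0.112). Egln3, a prolyl hydroxylase that acts on HIF alpha subunits and is itself induced by HIF, had ratios of 0.81, 1.31, 1.75 and -0.10 in Cdk6-K43M replicates and 1.29 in the pool, and 0.72, 0.45, -0.17 and -1.15 in Cdk6-/- replicates and 0.20 in the pool. Replicate 4 was the low sample of both genotypes, and the groups overlapped. Egln3 rose by 1.1 in Cdk6-K43M (SE 0.322, 2.14-fold, adjusted p = 0.0376), a call that was lost without replicate 1, 2 or 3 (adjusted p = 0.0657, 0.0783 and 0.0793), under 9 of 18 alternative settings in all, and that had an adjusted p of 0.0127 without replicate 4. Egln1, the main hydroxylase of HIF-1 alpha at normal oxygen, was at -0.017 (adjusted p = 0.938).

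Among hypoxia targets outside glycolysis, Ankrd37 showed the largest change of the 34 genes. Ankrd37 encodes an ankyrin repeat protein and is known as a direct HIF-1 target. It had ratios of 2.26, 2.67, 3.52 and 0.98 in Cdk6-K43M replicates and 2.87 in the pool, and -0.20, 0.81, -0.32 and -0.48 in Cdk6-/- replicates and 0.25 in the pool. All Cdk6-K43M samples of Ankrd37 lay above its Cdk6-/- samples, as in 4.04% of all genes. However, Cdk6-K43M replicate 4, the sample with the highest myeloid marker signal, came close to Cdk6-/- replicate 2. The part of myeloid cells in the value was not tested. Ankrd37 rose by 2.58 in Cdk6-K43M (SE 0.339, 5.98-fold, adjusted p = 0.000946). Ero1a, an oxidase of the endoplasmic reticulum that forms disulfide bonds, had ratios of 0.28, 0.53, 0.68 and 0.61 in Cdk6-K43M replicates and 0.60 in the pool, and -0.023, 0.32, -0.21 and 0.022 in Cdk6-/- replicates and 0.12 in the pool. Only Cdk6-K43M replicate 1 and Cdk6-/- replicate 2 crossed, and Ero1a rose by 0.57 in Cdk6-K43M (SE 0.0856, 1.48-fold, adjusted p = 0.00184).

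Bnip3, which promotes the removal of mitochondria by autophagy, had ratios of -0.28, 0.35, 0.35 and 0.23 in Cdk6-K43M replicates and 0.77 in the pool, and -0.24, -0.22, -0.14 and -0.62 in Cdk6-/- replicates and 0.25 in the pool. In both genotypes the pool with exchanged dyes lay above every single sample. The single Cdk6-K43M samples averaged 0.16 ± 0.30 (SD, n = 4), whereas the fitted increase, which takes the dye term from the pools, was 0.46 (SE 0.109, adjusted p = 0.016). Fitted on the single samples alone, Bnip3 was at 0.162 (adjusted p = 0.347). Car9, a membrane carbonic anhydrase that handles acid made by glycolysis, had ratios of 0.19, 0.29, 0.16 and 0.45 in Cdk6-K43M replicates and 0.37 in the pool, and 0.30, 0.23, 0.20 and 0.079 in Cdk6-/- replicates and 0.39 in the pool. All 10 arrays were positive and the groups overlapped, and Car9 rose by 0.33 in Cdk6-K43M (SE 0.0592, adjusted p = 0.00409). A second Car9 probe, less bright, gave 0.10 in Cdk6-K43M (adjusted p = 0.393 over all kept probes). The other 6 targets tested did not pass in Cdk6-K43M and lay between -0.22 and 0.24: Bnip3l, a mitophagy receptor like Bnip3, the collagen prolyl hydroxylase subunits P4ha1 and P4ha2, the stress-induced gene Ndrg1, the mTOR inhibitor Ddit4 and the histone demethylase Kdm3a.

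**Figure D2:**
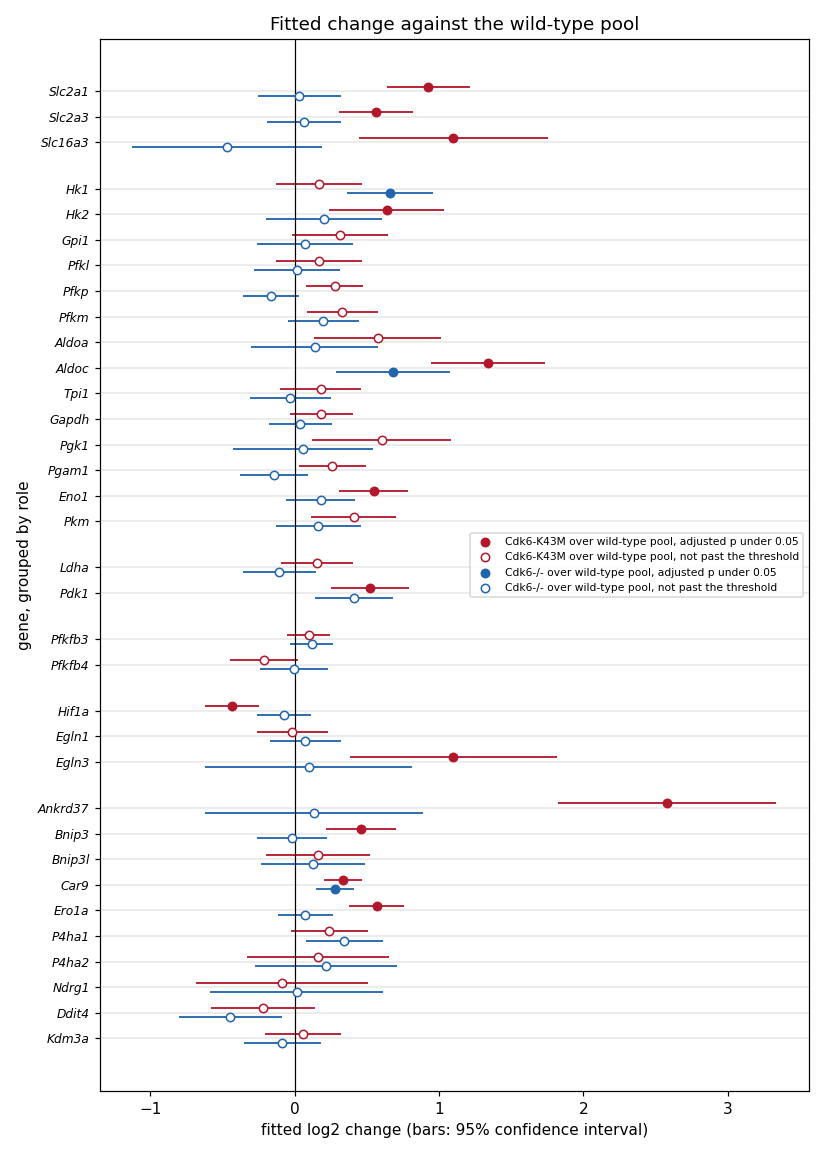
Fitted log2 change against the wild-type pool for the 34 genes, with Cdk6-K43M in red above Cdk6-/- in blue for each gene; bars are 95% confidence intervals and filled points have an adjusted p under 0.05. In Cdk6-K43M 12 points rise and 1, Hif1a, falls past the threshold, and in Cdk6-/- 3 rise.

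In Cdk6-/- colonies 3 of the 34 genes rose against the wild-type pool, 0 fell and 31 did not pass the test. Among all genes tested, 3.39% rose and 3.85% fell in Cdk6-/-. The median of the 34 was 0.0705, against 0.00137 over all genes, and 6 of the 34 had an unadjusted p under 0.05 (17.6%, against 24.8% of all genes). None passed without Cdk6-/- replicate 1, without replicate 2, or with the pool's own spread added to the standard errors. Hk1, the constitutive hexokinase bound to mitochondria, had ratios of 0.057, 0.31, 0.67 and -0.069 in Cdk6-K43M replicates and 0.080 in the pool, and 1.05, 0.86, 0.69 and 0.28 in Cdk6-/- replicates and 0.62 in the pool. Only Cdk6-/- replicate 4 lay well inside the Cdk6-K43M range. Hk1 rose by 0.66 in Cdk6-/- (SE 0.135, 1.58-fold, adjusted p = 0.0216), and the adjusted p was 0.059 and 0.0514 without Cdk6-/- replicate 1 or 2. Its value in Cdk6-K43M was 0.17 (adjusted p = 0.427). Aldoc rose by 0.68 in Cdk6-/- (SE 0.176, 1.6-fold, adjusted p = 0.0469) and Car9 by 0.28 (SE 0.0592, adjusted p = 0.0242), so that both genes passed in both genotypes, against the same pool. The Aldoc call in Cdk6-/- was lost under 12 of 18 alternative settings, replicates left out included, with adjusted p between 0.0266 and 0.305 over them, while its change stayed positive in all of those. The Car9 call in Cdk6-/- was lost under 7 of 18 alternative settings, among them slide as a block (0.269, adjusted p = 0.0803) and the mean of the 2 Car9 probes (0.171, adjusted p = 0.0684), and its second probe gave 0.060. No transporter passed in Cdk6-/-: Slc2a1 was at 0.033, Slc2a3 at 0.062 and Slc16a3 at -0.47 (adjusted p = 0.904, 0.782 and 0.355). Ddit4, whose product is induced by hypoxia and by other stress, was negative on all 5 Cdk6-/- arrays and had a fitted value of -0.45 (adjusted p = 0.122). All 4 single Cdk6-K43M samples were negative too, with 0.11 in their pool and a fitted value of -0.22 (adjusted p = 0.384). Of the members not called in Cdk6-/-, Pdk1 (0.41) and P4ha1 (0.34) had smaller adjusted p (0.0726 and 0.11).

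The direct comparison of Cdk6-K43M with Cdk6-/- colonies used the 8 arrays of single samples, which share pool and dye. It gave 0 calls among the 34 genes, with 11 at an unadjusted p under 0.05 (32.4%, against 14.1% of all genes). Over all genes, 0.264% were called higher and 0.25% lower in Cdk6-K43M than in Cdk6-/-. The median difference of the 34, Cdk6-K43M minus Cdk6-/-, was 0.215, against -0.00951 over all genes, and 26 of the 34 differences were positive (76.5%, against 47.6% of all genes). In 2 of the 34, Slc2a1 and Ankrd37, all Cdk6-K43M samples lay above all Cdk6-/- samples, and in 1, Hif1a, all lay below. Over all genes these shares were 4.04% and 4.1%, and the counts among the 34 were near them.

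Ankrd37 differed by 2.41 (95% confidence interval 1.27 to 3.54, 5.3-fold, adjusted p = 0.106), and the difference within slides 1, 2 and 3 was 2.46, 2.23 and 2.72. Without Cdk6-K43M replicate 4 the Ankrd37 difference was 2.87 and passed (adjusted p = 0.0273). Slc2a1 differed by 0.91 (interval 0.47 to 1.34, adjusted p = 0.112), with 0.96, 0.83 and 1.00 within the slides. For both genes the sign was the same and the size similar on every slide, but slides 1 and 3 held only 1 single sample of each genotype. The slide 2 value is a difference of means, and for Ankrd37 its Cdk6-K43M samples were at 2.67 and 0.98. Slc16a3 differed by 1.60 (interval 0.61 to 2.58, adjusted p = 0.181) and Ero1a by 0.50 (interval 0.21 to 0.79, adjusted p = 0.163). Hif1a was lower in Cdk6-K43M than in Cdk6-/- by a log2 difference of -0.39 (interval -0.67 to -0.11, adjusted p = 0.228), and Hk1 had -0.48 (interval -0.93 to -0.027, adjusted p = 0.329). The Aldoc difference of 0.65 (adjusted p = 0.315) was 1.07 within slides 1 and 2 but -0.59 within slide 3. When all 10 arrays were fitted with the dye term, which counts the RNA of each sample again through its pool, 3 differences passed: Ankrd37, Slc2a1 and Ero1a (adjusted p = 0.0216, 0.0262 and 0.045).

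**Figure D3:**
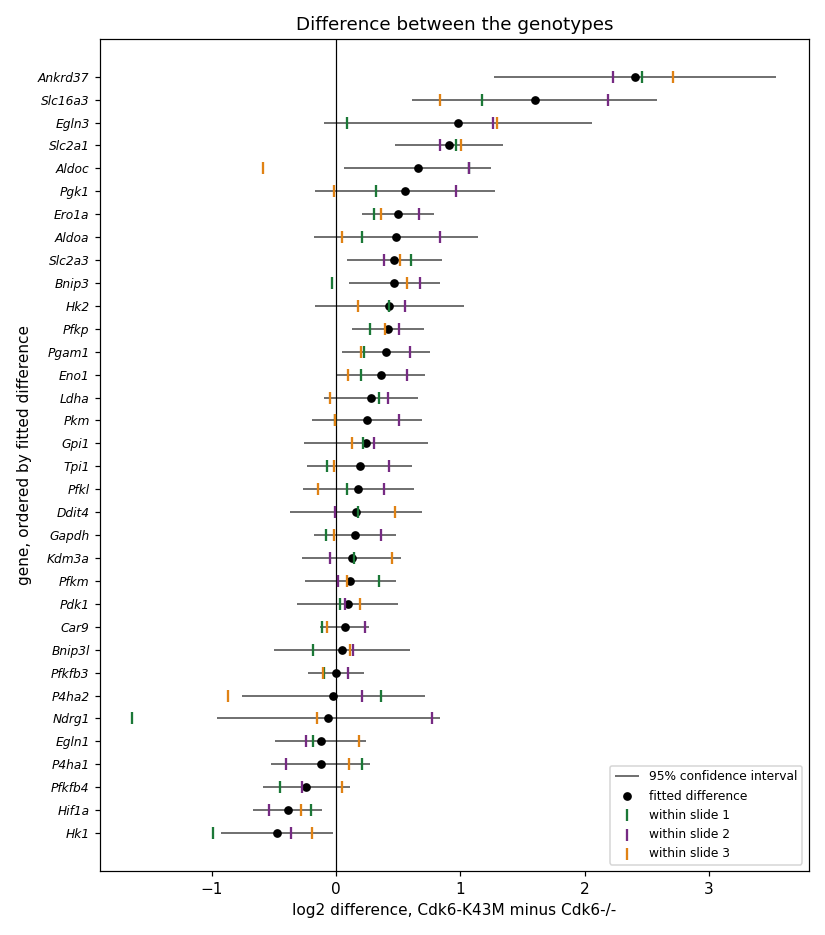
Fitted log2 difference, Cdk6-K43M minus Cdk6-/-, for the 34 genes in order of size, with 95% confidence intervals and the differences within each of the 3 slides as coloured ticks. Ankrd37 leads at 2.41 with its 3 ticks between 2.23 and 2.72, and Hk1 is last at -0.48.

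The same samples were often highest or lowest of their genotype across the 34 genes. Cdk6-K43M replicate 3 had the highest ratio of its genotype in 24 of the 34 genes (70.6%), where it was highest in 24.9% of all genes, and replicate 1 was lowest in 17 (50%, against 19.9% of all genes). Among Cdk6-/- samples replicate 2 was highest in 21 of the 34 (61.8%, against 20.9% of all genes) and replicate 4 lowest in 23 (67.6%, against 26.9%). These shares describe genes measured in the same libraries and are not a test. Both high samples, Cdk6-K43M replicate 3 and Cdk6-/- replicate 2, lay on slide 3, and the part of the slide was not tested. The median ratio of the 34 was 0.103, 0.3, 0.489 and 0.162 in Cdk6-K43M replicates 1 to 4 and 0.373 in their pool. In Cdk6-/- replicates it was 0.0171, 0.435, 0.0903 and -0.243, and 0.155 in their pool. The medians of the genotypes thus overlapped, with Cdk6-/- replicate 2 above 3 of the 4 Cdk6-K43M samples. For the transporters the Cdk6-K43M medians of 0.487, 1.18, 1.48 and 0.903 were all above the Cdk6-/- medians, of which replicate 2 had the highest, 0.483. The glycolytic enzymes overlapped: their medians were 0.127, 0.326, 0.587 and 0.216 in Cdk6-K43M replicates and 0.0248, 0.509, 0.00607 and -0.274 in Cdk6-/- replicates. Without Cdk6-/- replicate 2 the median change of the 34 in Cdk6-/- was -0.0113, and without both single samples of slide 3, a choice made after seeing the data, it was 0.00865 in Cdk6-/- and 0.248 in Cdk6-K43M.

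**Figure D4:**
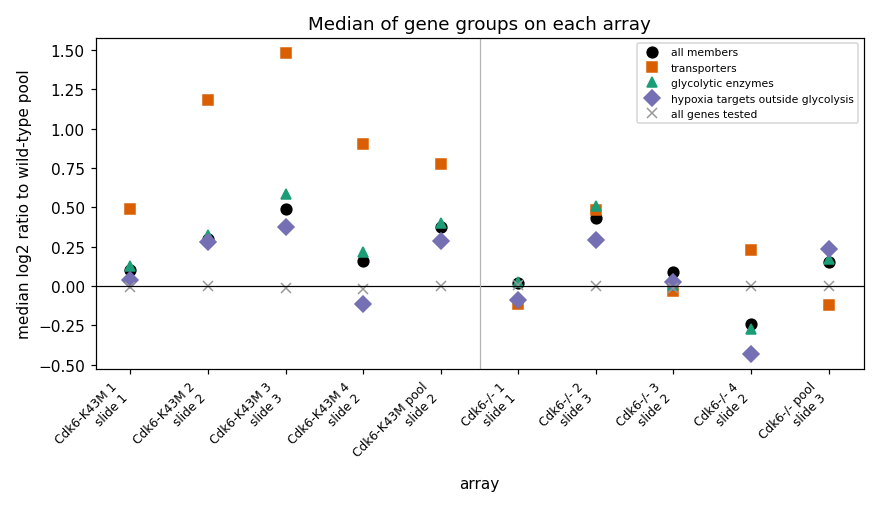
Median log2 ratio to the wild-type pool on each of the 10 arrays, Cdk6-K43M left and Cdk6-/- right of the grey line, for all 34 genes, 3 role groups and all genes tested. The median of all genes stays near 0 on every array, while that of the 34 runs from -0.243 in Cdk6-/- replicate 4 to 0.489 in Cdk6-K43M replicate 3.

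Related genes outside the 35 were taken from 6 lists of 112 genes, of which 86 were measured. The counts of these lists are to be read beside the shares of all genes. Those were 9.79% higher and 10.3% lower in Cdk6-K43M, and 3.39% higher and 3.85% lower in Cdk6-/-. Several lists are small and near these shares, and no list was tested as a set. Of 15 measured other isozymes and transporters of glycolysis, 4 rose and 0 fell in Cdk6-K43M, with a median of 0.038. The lactate carrier Slc16a1 (MCT1) rose by 0.50 and its chaperone Bsg by 0.34 (adjusted p = 0.00196 and 0.0185). The muscle enolase Eno3 and the enzyme Pfkfb1 each rose by 0.26. Of 29 measured other hypoxia-inducible genes, 4 rose and 2 fell in Cdk6-K43M, with a median of 0.143. Car12, another membrane carbonic anhydrase, rose by 0.77 and Hilpda, which promotes lipid droplets, by 0.56 (adjusted p = 0.00125 and 0.000674), and Errfi1, a receptor feedback inhibitor, rose by 0.60 and the histone demethylase Kdm4b by 0.31. Vegfa, the angiogenic growth factor widely used as a HIF target, fell by 0.53 (adjusted p = 0.00516), and the chemokine receptor Cxcr4 fell by 0.31.

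Of 12 measured HIF subunits and regulators, 2 rose and 3 fell in Cdk6-K43M. Cited2, which competes with HIF for its coactivators, fell by 0.78 in Cdk6-K43M and by 0.81 in Cdk6-/- (adjusted p = 0.00011 and 0.000194). The asparaginyl hydroxylase Hif1an fell by 0.34 in Cdk6-K43M and by 0.26 in Cdk6-/-, and the prolyl hydroxylase Egln2 fell by 0.30 in Cdk6-K43M. Cul2, a scaffold of the ubiquitin ligase that degrades HIF alpha subunits, rose by 0.30. Epas1, the HIF-2 alpha subunit, is the other gene counted as risen, with a value of 0.37. The Epas1 probe was well above background in only 4 of 10 wild-type channels, below the 5 required. It was therefore tested only because of its signal in mutant samples, and its wild-type signal was near background, so its call is no sure increase. Of the 7 genes of the pentose phosphate pathway, which branches from glycolysis, 3 fell and 0 rose in Cdk6-K43M, where 10.3% of all genes fell. They were Rpia, ribose 5-phosphate isomerase (-0.55), Pgls, the lactonase (-0.49), and Taldo1, transaldolase (-0.32).

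Around pyruvate dehydrogenase, 1 of 11 measured genes rose and 2 fell in Cdk6-K43M: Dlat, the E2 subunit, rose by 0.43, while the phosphatase Pdp1 fell by 0.44 and the binding protein Pdhx by 0.21. Of 12 measured genes of gluconeogenesis and glycogen, 2 rose in Cdk6-K43M, the mitochondrial carboxykinase Pck2 (0.37) and the glycogen phosphorylase Pygl (0.83). In Cdk6-/- the increases in the same lists included Pfkfb1 (0.37) and the glycogen primer Gyg (0.40). Against these stood the decreases of Cited2 and Hif1an above and of Ugp2 (-0.31), Pdha1 (-0.24), Pdp1 (-0.37), Rpia (-0.33) and Bhlhe40 (-0.92). Between the genotypes 0 of the 86 passed.

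**Figure D5:**
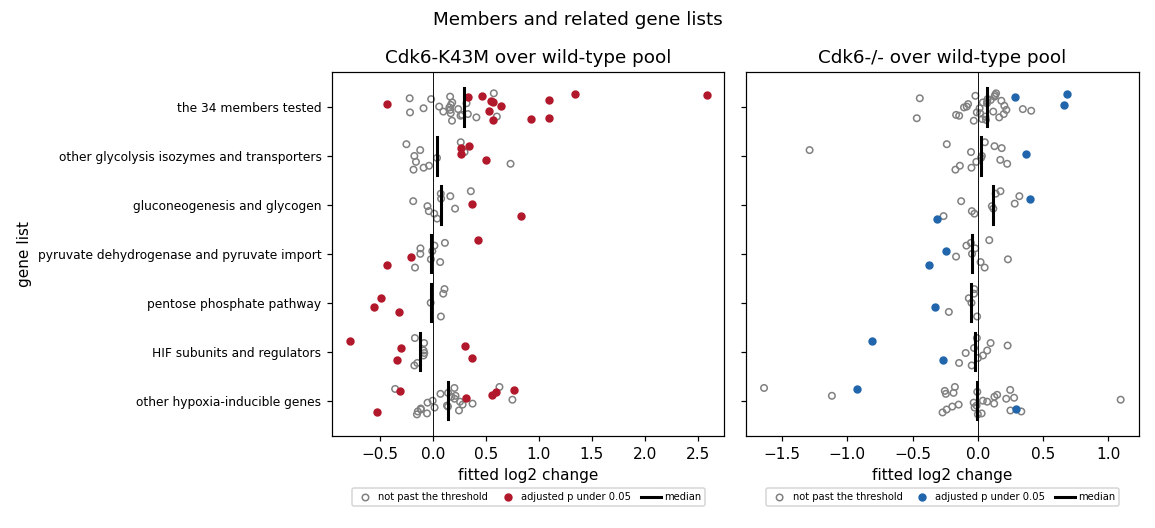
Fitted log2 change against the wild-type pool of the 34 genes and of the measured genes of 6 related lists, Cdk6-K43M left and Cdk6-/- right; filled points have an adjusted p under 0.05 and black bars are list medians. In Cdk6-K43M the median of the 34 is 0.296, and those of the related lists lie between -0.118 and 0.143.

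Where a gene had several probes, the brightest stood for it, and 14 of the 34 had more than 1 kept probe. The 2 Aldoc probes gave 1.34 and 1.53 in Cdk6-K43M and 0.68 and 0.77 in Cdk6-/-. The second Eno1 probe gave 0.44 in Cdk6-K43M (adjusted p = 0.0216 over all kept probes), below the 0.55 of the first. The 4 Pdk1 probes ranged from 0.12 to 0.63 in Cdk6-K43M and from 0.057 to 0.54 in Cdk6-/-, and the probe with the highest value passed in both genotypes (adjusted p = 0.00245 in Cdk6-K43M and 0.0165 in Cdk6-/-). Ankrd37, Slc2a1, Slc16a3, Ero1a, Egln3, Bnip3 and Hif1a rest on 1 probe each.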

How the data were processed

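The deposited scanner files give spot and local background intensity for 10 two-colour arrays on 3 slides, which Agilent software, Feature Extraction version 11.5.1.1, had read from the scans, per the file headers. They also hold intensities that this software had already corrected for background and dye, and their log10 ratio, per the file headers. The authors deposited log2 values for the same arrays as well, called loess normalized in their title, and their background correction is not stated.

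Intensities were corrected by normexp (offset 50) and loess within arrays in limma 3.58.1 (R 4.3.3, data.table version 1.17.8), spots called not uniform were set to missing, and spots of a probe were averaged. Symbols came from RefSeq (GRCm38.p6) by transcript accession, which matched 58.3% of probes. Probes were kept if well above background on 3 of 4 arrays of a genotype or in 5 wild-type channels (28177 kept), and the brightest stood for its gene. Changes against the pool came from all 10 arrays with swapped signs reversed and a dye term, with 7 residual degrees of freedom. The swapped pools hold the same RNA again, so that spread may be too small. Genotype differences came from the 8 single-sample arrays. Benjamini-Hochberg adjustment ran over all 22008 genes. The steps were tested on simulated data with independent noise on every array. Those data held neither the shared error of 1 wild-type pool nor RNA used again in swapped pools, so they cannot check p-values for either. The members, related lists and tests were chosen with earlier results of these data known. Full values are given for members past the threshold in any comparison and, in a role group without one, for the member with the smallest p, and related genes are named where they passed, except 1 that is counted in its list but not reported here. Alternatives covered background correction, processed signals, the deposited log2 values, centring, the probe filter and choice, slide, dye, the pool's spread, replicate pairing and each replicate left out. Array number limits the precision of every value.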

Additional observations from a re-analysis of the deposited data

Results flagged for a closer look

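Within each genotype, 4 of 70 groups of 4 single samples held a sample whose gap to the nearest other, over the whole range, was above Dixon's 95% critical value for 4 samples, and chance gives about 1 in 20. In 3 of them Cdk6-/- replicate 2 stood above the others. Slc16a3 had a log2 ratio of 0.664 in Cdk6-/- replicate 2, while the other 3 Cdk6-/- samples lay between -1.1 and -0.818. Tpi1 was at 0.215 in that sample, against -0.49 to -0.39 in the others, and Gapdh was at 0.202, against -0.299 to -0.234. Pfkfb3 was at 0.159 in Cdk6-K43M replicate 2, and the other 3 Cdk6-K43M samples lay between -0.106 and -0.0819.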

How the results depend on the processing

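Of 16 calls against the wild-type pool, 5 passed in all 18 alternative settings: Aldoc, Ankrd37, Car9, Ero1a and Slc2a1 in Cdk6-K43M. Of 288 values of the called genes under those settings, 237 kept their sign and side of the threshold, 51 lost the threshold and 0 changed sign. Among genes not called the sign changed 13 times in Cdk6-K43M, 45 times in Cdk6-/- and 27 times between the genotypes.

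The count of members past the threshold in Cdk6-K43M was 23 with arrays centred on their median and 5 with the pool's own spread added to the standard errors, and leaving out 1 replicate gave 10 to 18. With median centring 23 rose and 0 fell, against 12 and 1 with loess, the members' median was 0.522 in Cdk6-K43M and 0.453 between the genotypes, and the median of all genes in Cdk6-K43M moved up by 0.122 to 0.112. Relative to the median of all genes the members' median in Cdk6-K43M was 0.41, against 0.306 with loess. Between the genotypes it was 0.383, against 0.225 with loess. In Cdk6-/- the count was 1 with Agilent's processed signals and 0 with the pool's spread added, and leaving out 1 replicate gave 0 to 4, with 0 without Cdk6-/- replicate 1 or 2. Between the genotypes it was 3 with all 10 arrays and the dye term, and leaving out 1 replicate gave 0 to 1. With slide as a block the counts were 17 in Cdk6-K43M, 2 in Cdk6-/- and 0 between the genotypes, and the median difference within slides 1, 2 and 3 was 0.188, 0.4 and 0.0956. The cause of these changes was not tested.

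Samples numbered 1 to 4 in both genotypes deviated from their group means with correlations across genes of 0.0839, -0.066, 0.228 and 0.139. Cdk6-K43M replicates 1, 3 and 4 correlated best with the Cdk6-/- sample of the same number, replicate 1 only just (0.0831 with Cdk6-/- replicate 4). Cdk6-K43M replicate 2 correlated best with Cdk6-/- replicate 1 (0.201). Since the same-number values are not all over 0.1, the numbers were not taken to pair the samples. With a replicate block the median difference stayed at 0.215, 0 members passed, and 37 genes passed in all, against 113 without it. Signal over background limits only Adm among the 35.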
